A study of Mus musculus with 8 samples.

Results

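Metallothioneins and their zinc partners were followed in whole hearts of C57BL/6 mice at postnatal day 12. The group covers 6 of the 22518 genes in the table, found by symbol: the metallothioneins Mt1, Mt2 and Mt3, the zinc-sensing transcription factor Mtf1, the zinc exporter Slc30a1 and the zinc importer Slc39a14. All 6 were in the table and all 6 had a mean of at least 1 FPKM (a fragment count scaled to transcript length and library size), the filter used for testing. Total RNA was sequenced from 4 libraries of wild type littermates and 4 libraries of mice with a knockout of PHD2 and PHD3 in endothelial cells. These 2 proteins, encoded by Egln1 and Egln3, are oxygen-dependent enzymes that mark hypoxia-inducible factors (HIF) for destruction. The labels name no other allele or treatment, do not name the Cre driver behind the knockout, and do not say whether each library came from 1 animal, so the error between libraries may be technical.

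The 6 genes were chosen on earlier results of this same comparison, in which Mt2 stood out. Their group differences are therefore a description: values, folds and overlaps are given without a p-value for any of the 6. A gene is said to be called where its adjusted p was under 0.05 in limma over all 11390 genes that passed the filter. Values are FPKM in wild type replicates 1 to 4 and knockout replicates 1 to 4, means are ± SD with n = 4, a fold divides the knockout mean by the wild type mean, and a log2 change (± SE) is knockout minus wild type on the log2(FPKM + 1) scale, where the change of low genes is understated.

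Metallothioneins are small, cysteine-rich proteins that bind zinc and copper through their cysteine thiols and buffer free zinc in the cell. Mtf1 encodes MTF-1, a zinc finger protein that senses free zinc and binds metal response elements (MREs) in the promoters of Mt1, Mt2 and Slc30a1. Mt1 and Mt2 are expressed in most tissues and are also known to be induced by glucocorticoids, inflammatory cytokines, oxidative stress and hypoxia. Mt3 was first described in brain as a growth inhibitory factor. The SLC30 (ZnT) family moves zinc out of the cytosol and the SLC39 (ZIP) family moves it in.

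The 3 metallothioneins lie in a cluster on chromosome 8 and are transcribed from the same strand. In mm10 with GENCODE M21, Mt3 spans chr8:94152607-94154146, Mt2 chr8:94172664-94173568 and Mt1 chr8:94179082-94180327, all on the plus strand. Mt4, the family member of stratified epithelium, lies before them at chr8:94137197-94139031 on the same strand and was listed at 0 in all 8 libraries. The starts of Mt2 and Mt1 are 6418 bases apart and those of Mt3 and Mt2 20057 bases apart. Elsewhere, Mtf1 spans chr4:124802104-124849800 and Slc30a1 chr1:191906767-191913247, both on the plus strand, and Slc39a14 spans chr14:70303469-70351425 on the minus strand. Mt2, Mtf1 and Slc30a1 each overlap a gene on the opposite strand in this annotation. Whether the counting used strand is not stated in the labels, and reads of such partners cannot be told apart.

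The coding sequences of the 3 metallothioneins are shown because the results turn on how these near copies differ. They were read from GENCODE M21 transcripts on mm10, plus strand, 5′ to 3′ without the stop codon, and the capitals mark cysteine codons.
Mt1: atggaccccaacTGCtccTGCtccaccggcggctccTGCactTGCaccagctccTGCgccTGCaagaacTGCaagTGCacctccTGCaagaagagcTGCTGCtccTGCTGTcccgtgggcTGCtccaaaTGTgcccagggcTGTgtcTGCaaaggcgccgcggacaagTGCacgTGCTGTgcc
Mt2: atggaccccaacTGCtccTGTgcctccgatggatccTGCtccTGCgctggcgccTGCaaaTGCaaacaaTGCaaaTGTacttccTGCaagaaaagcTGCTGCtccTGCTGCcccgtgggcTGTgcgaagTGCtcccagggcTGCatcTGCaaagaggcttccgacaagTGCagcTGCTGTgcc
Mt3: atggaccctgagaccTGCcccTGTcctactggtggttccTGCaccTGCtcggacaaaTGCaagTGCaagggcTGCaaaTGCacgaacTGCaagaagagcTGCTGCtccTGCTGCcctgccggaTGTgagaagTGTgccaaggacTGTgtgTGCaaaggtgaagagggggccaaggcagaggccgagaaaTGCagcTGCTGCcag
Mt1 and Mt2 each have 61 codons, 20 of them for cysteine. Mt3 has 68 codons with the same number for cysteine, so its share is 29.4% against 32.8%. Over 183 aligned coding bases, Mt1 and Mt2 were identical at 145 (79.2%), Mt1 and Mt3 at 134 (73.2%) and Mt2 and Mt3 at 137 (74.9%). The longest stretch of identical mRNA was 20 bases between Mt1 and Mt2, 27 bases between Mt1 and Mt3 and 20 bases between Mt2 and Mt3. The labels give no read length, and how far reads of these genes could be exchanged by the authors' quantification was not tested.

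The promoters are shown because MTF-1 and HIF act through short motifs that can be read in them. Each window holds 250 bases before and 50 bases from the RefSeq transcription start (GRCm38.p6, the assembly of mm10), on the plus strand, and capitals mark matches to the MRE core. RefSeq and GENCODE place some starts at different bases, and distances here are from the RefSeq start. The windows are chr8:94178839-94179138 for Mt1, chr8:94172368-94172667 for Mt2, chr8:94152357-94152656 for Mt3 and chr1:191906531-191906830 for Slc30a1.
Mt1: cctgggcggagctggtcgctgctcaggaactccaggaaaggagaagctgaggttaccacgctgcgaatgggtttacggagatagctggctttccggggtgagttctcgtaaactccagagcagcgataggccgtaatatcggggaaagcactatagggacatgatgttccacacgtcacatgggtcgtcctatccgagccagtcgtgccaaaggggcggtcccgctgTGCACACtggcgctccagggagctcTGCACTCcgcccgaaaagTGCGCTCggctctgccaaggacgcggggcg
Mt2: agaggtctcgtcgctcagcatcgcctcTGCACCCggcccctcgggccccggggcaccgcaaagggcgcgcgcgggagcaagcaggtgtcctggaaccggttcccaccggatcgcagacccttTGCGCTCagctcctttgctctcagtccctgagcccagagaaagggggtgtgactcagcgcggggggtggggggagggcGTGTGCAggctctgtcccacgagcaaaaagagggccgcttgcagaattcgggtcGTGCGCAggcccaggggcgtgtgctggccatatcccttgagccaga
Mt3: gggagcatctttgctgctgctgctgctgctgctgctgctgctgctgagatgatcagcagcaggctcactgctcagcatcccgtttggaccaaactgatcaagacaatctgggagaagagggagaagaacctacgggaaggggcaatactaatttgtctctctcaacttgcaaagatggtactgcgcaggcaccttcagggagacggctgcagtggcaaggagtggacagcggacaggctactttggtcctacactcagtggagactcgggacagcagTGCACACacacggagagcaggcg
Slc30a1: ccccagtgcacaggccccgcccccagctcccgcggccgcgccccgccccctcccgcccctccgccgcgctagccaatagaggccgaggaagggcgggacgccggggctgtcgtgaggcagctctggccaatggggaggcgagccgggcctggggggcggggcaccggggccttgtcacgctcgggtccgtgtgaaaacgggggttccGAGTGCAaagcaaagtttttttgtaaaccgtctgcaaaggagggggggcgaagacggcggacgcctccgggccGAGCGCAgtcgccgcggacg
The MRE core was searched as TGCACNC or TGCGCNC on both strands, with overlapping matches merged. Mt2 held 4 matches, first bases at 223, 128 and 50 before the start and 4 after it. Mt1 held 3, at 23 before the start and 2 and 20 after it. Slc30a1 held 2, Mt3 and Mt4 held 1 each and Mtf1 held 0. Among 32851 promoter windows of the same length in the RefSeq table, 25.7% held at least 1 match, 6.14% at least 2, 1.31% at least 3 and 0.295% at least 4. The core of the hypoxia response element, searched as ACGTG or GCGTG on both strands, was found at 2 places in Mt1 (194 and 79 before the start), 2 in Mt2 (52 before the start, where it overlaps an MRE core, and 20 after it) and 1 in Slc30a1 (75 before the start). It was found at 0 places in Mt3 and Mtf1, and 43.8% of all windows held at least 1 and 17.3% at least 2. A match describes the letters of the window and is not a measured binding site. Bases outside each window were not searched, so the number and positions of matches depend on the annotated start used. Differences in number between genes, such as Mt1 and Mt2, hold for these windows only. The promoter table held 5 of the 6 genes.

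**Figure D1:**
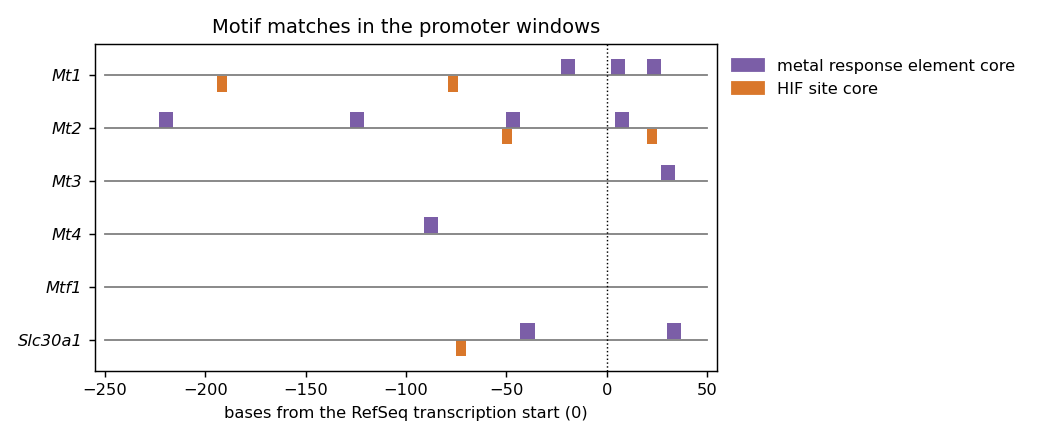
Matches to the MRE core and the hypoxia response element core in promoter windows of the metallothioneins, Mtf1 and Slc30a1, by distance in bases from the RefSeq transcription start (x axis), 1 row per gene. Mt2 has 4 MRE matches, Mt1 3, Slc30a1 2, Mt3 and Mt4 1 each and Mtf1 0.

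The libraries were heart and shared a common scale. Markers of cardiomyocytes summed to 24644 to 30241 FPKM in wild type and 21241 to 26454 FPKM in knockout libraries, and endothelial markers to 454 to 543 and 414 to 458 FPKM. Of the 7 endothelial markers, 0 were called higher and 2 lower, beside 6.15% and 6.01% of all genes tested. Tie1 and Tek were called lower (limma adjusted p = 0.00202 and 0.00779). Pecam1 was higher in every knockout library than in any wild type library and was not called (limma adjusted p = 0.0665). In whole tissue, fewer cells of a type and less RNA per cell cannot be told apart. Egln1 was at 45.2 to 57.9 FPKM in wild type and 52.6 to 63.5 FPKM in knockout libraries, and Egln3 at 17.96 to 38.7 and 32.6 to 52.8 FPKM, so neither targeted gene was lower. Values over the whole gene in whole heart do not check a deletion limited to endothelial cells. Wild type replicate 4 stood apart in markers of airway and alveolar epithelium, which summed to 1241 FPKM there and to at most 0.481 FPKM in the other wild type libraries. This sum was nearly all from the airway genes Scgb1a1 and Scgb3a2. The alveolar genes Sftpc, Sftpb and Sftpa1 were at most 3.83 FPKM in that library. The labels give knockout replicate 4 a library number far from those of the other libraries. For each of the 6 genes the value without both replicates 4 is given. Sequencing depth is unknown, because the deposited values are quantile normalised and hold no counts.

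Of the 6 genes, 3 were called, all higher in knockout hearts: Mt1, Mt2 and Mt3. Over all genes tested, 12.2% were called, 6.15% higher and 6.01% lower. The same 3 genes had no overlap between the groups, against 20.7% of all genes tested in either direction and 10.3% with the knockout higher. Because the genes were chosen on this comparison, nothing is read from these counts. Mtf1, Slc30a1 and Slc39a14 were not called and their groups overlapped.

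**Figure D2:**
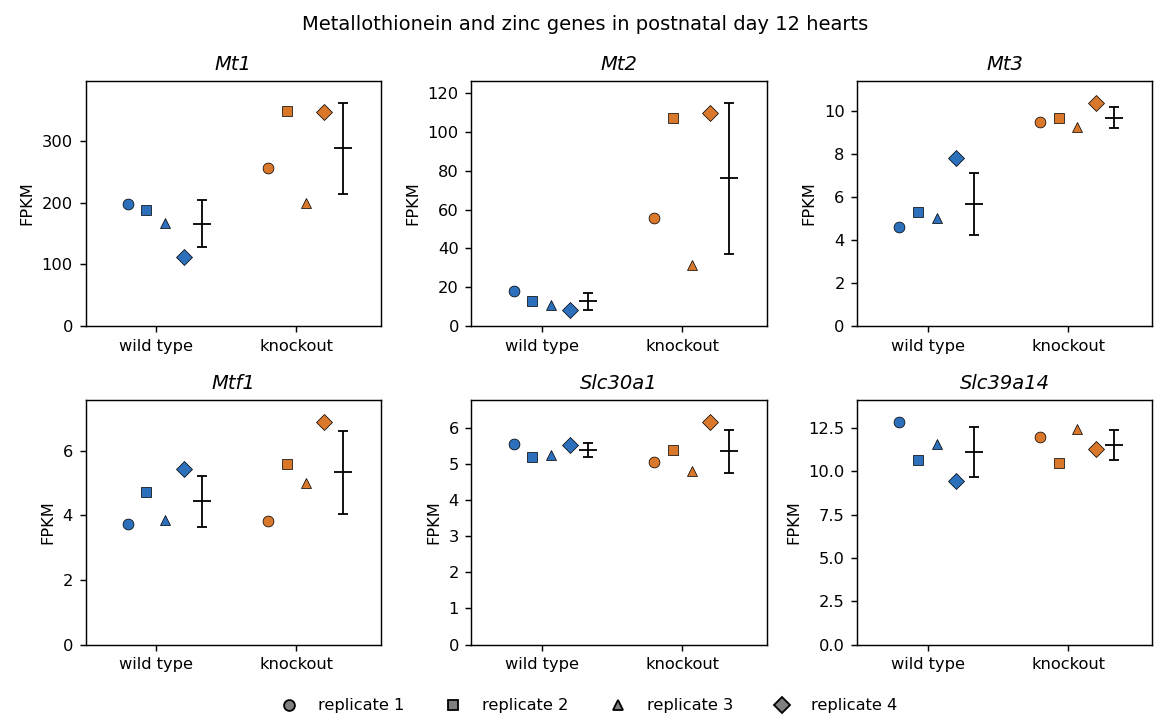
FPKM (y axis, linear from 0) of the 6 genes in each wild type and knockout library, with marker shapes for replicates 1 to 4 and bars for mean ± SD of 4 libraries per group. Mt2 lies at 8.42 to 18.3 FPKM in wild type and 31.6 to 109.7 FPKM in knockout hearts, while the groups of Mtf1, Slc30a1 and Slc39a14 overlap.

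Mt2 had the largest rise of the 6. It was at 18.3, 12.9, 10.9 and 8.42 FPKM in wild type and, in knockout replicates 1 to 4, at 55.6, 107, 31.6 and 109.7 FPKM. All knockout libraries lay above all wild type libraries, with knockout replicates 2 and 4 far above replicates 1 and 3. The means were 12.6 ± 4.19 and 76.0 ± 38.7 FPKM, a 6.02-fold difference and a log2 change of 2.38 ± 0.40. The lowest knockout library was 1.73 times the highest wild type library, and the highest knockout library was 3.48 times the lowest. In rank, Mt2 stood between 3126th and 5503rd of the 22518 genes in wild type libraries and between 595th and 1958th in knockout libraries. Leaving out any 1 library gave folds of 5.13 to 7.19, and leaving out both replicates 4 gave 4.62, with the call kept each time.

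Mt1 was the most abundant of the 6 in both groups. It was at 198, 188, 167 and 112 FPKM in wild type and, in the same order of knockout replicates, at 256, 349, 199.6 and 348 FPKM. The groups did not overlap, but only just: the lowest knockout library, replicate 3, was 1.01 times the highest wild type library. The means were 166 ± 38.7 and 288 ± 73.3 FPKM, a 1.73-fold difference and a log2 change of 0.79 ± 0.22. The call of Mt1 was fragile. It was lost when any 1 library except knockout replicate 3 was left out, with wild type replicate 4 out giving 1.56-fold, and 1.45-fold and a log2 change of 0.50 when both replicates 4 were left out. It was also lost in 3 other alternatives, for 11 of 15 in all, and the direction stayed the same in all 15.

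Mt3 rose from a low level with little spread among the knockout hearts. It was at 4.61, 5.30, 5.04 and 7.82 FPKM in wild type and at 9.50, 9.67, 9.24 and 10.4 FPKM in knockout hearts 1 to 4. Wild type replicate 4, the library with airway markers, was the highest of its group, and it still lay below every knockout library. The means were 5.69 ± 1.45 and 9.69 ± 0.478 FPKM, a 1.70-fold difference and a log2 change of 0.70 ± 0.13. Without wild type replicate 4 the fold was 1.95, without both replicates 4 it was 1.90, and the call was kept in all 15 alternatives. The coefficient of variation among knockout hearts was 4.93% for Mt3, 25.5% for Mt1 and 50.9% for Mt2.

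**Figure D3:**
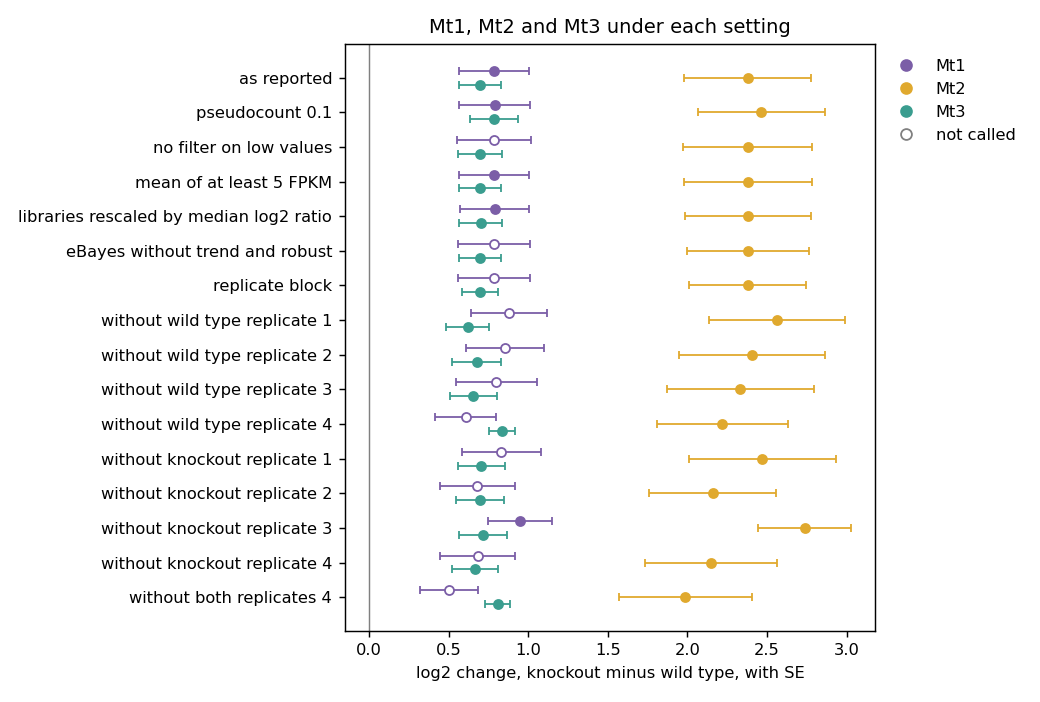
Log2 change of Mt1, Mt2 and Mt3, knockout minus wild type (x axis), with bars for the SE, in the fit as described and in each of 15 alternatives, with filled symbols for calls and open symbols for no call. Mt2 runs from 1.99 to 2.74 and Mt3 from 0.62 to 0.84, all called, while Mt1 runs from 0.50 to 0.95 and is called in 4 of 15.

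Because Mt3 is known from neurons, markers of nerve cells were read beside it. The 4 neuron markers in the table summed to 3.24 to 6.53 FPKM in wild type and 7.11 to 9.57 FPKM in knockout hearts. This sum was carried by Stmn2, a tubulin-binding protein of growing axons, which rose 1.83-fold (limma adjusted p = 0.0195 over all genes), from 4.50 ± 1.30 to 8.25 ± 1.28 FPKM. The synaptic genes Snap25 and Syt1 were at or near 0, with at most 0.413 and 0.103 FPKM in any library. Glial markers summed to 9.73 to 12.3 FPKM in wild type and 3.86 to 11.8 FPKM in knockout hearts. Among them the astrocyte gene Gfap was at most 0.0801 FPKM. The part of nerve cells in the change of Mt3 was not tested.

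The metallothioneins differed in how the libraries were ordered. Mt1 and Mt2 had the same order among wild type hearts, with replicate 1 highest and replicate 4 lowest, and in knockout hearts both were high in replicates 2 and 4 and lowest in replicate 3. Mt3 did not follow it: among wild type hearts it was highest in replicate 4, and its knockout hearts were within 1.12-fold of each other. With 4 libraries a group, and with all 3 genes read from the same libraries, these orders are a description.

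Mt2 rose more than its neighbour Mt1, so the make-up of the metallothionein pool differed between the groups. The ratio of Mt1 to Mt2 FPKM was 10.8, 14.6, 15.3 and 13.2 in wild type and 4.60, 3.26, 6.33 and 3.17 in knockout replicates 1 to 4. The groups did not overlap, with means of 13.5 ± 1.96 and 4.34 ± 1.48. Summed FPKM of Mt1, Mt2 and Mt3 was 221, 206, 183 and 128 in wild type and 321, 466, 240.4 and 468 in knockout hearts, a 2.03-fold difference of the means, 185 ± 40.9 and 374 ± 112. Mt2 made up 5.98% to 8.27% of this sum in wild type and 13.1% to 23.4% in knockout hearts. Mt1 remained the main part, with a mean share of 89.8% ± 1.86 in wild type and 78.0% ± 4.13 in knockout hearts. The share of Mt3 was 3.38% ± 1.85 and 2.77% ± 0.812, and its groups overlapped. These ratios use the same values that chose the genes and carry no test.

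**Figure D4:**
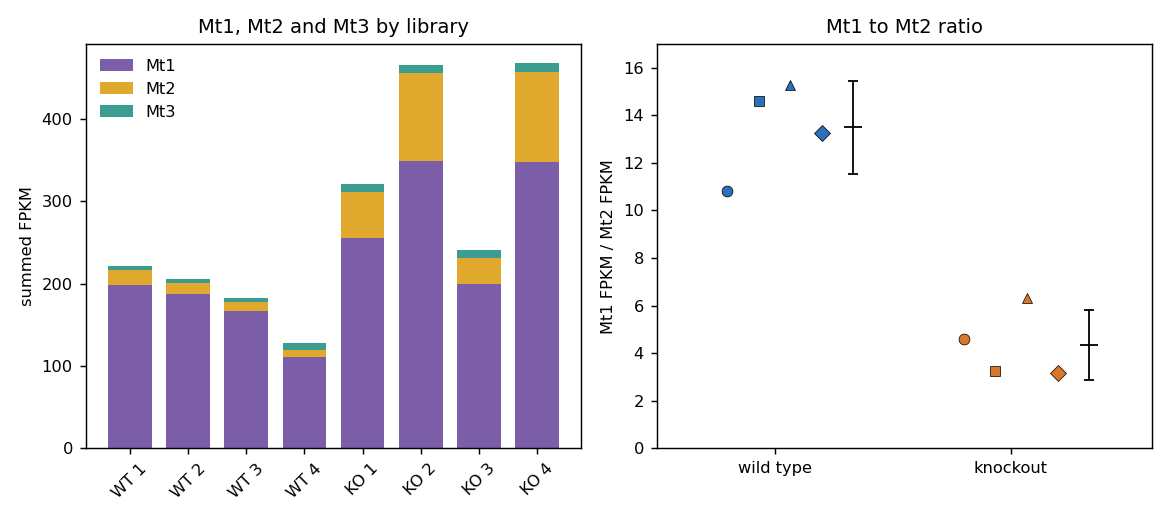
Summed FPKM of Mt1, Mt2 and Mt3 as stacked bars, 1 per library (WT wild type, KO knockout), and the ratio of Mt1 to Mt2 FPKM in each library, with circle, square, triangle and diamond for replicates 1 to 4 and mean ± SD. The sum runs from 128 to 221 in wild type and from 240.4 to 468 in knockout hearts, and the ratio from 10.8 to 15.3 and from 3.17 to 6.33.

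Markers of other cell types were also read. Hepatocyte markers summed to 0.340 to 0.680 FPKM in wild type and 0.545 to 2.56 FPKM in knockout hearts, with Fgb at 0 in all 8 libraries. Adipocyte markers summed to 0 to 12.5 FPKM in wild type and 0 to 27.2 FPKM in knockout hearts. Their sum was at 27.2 FPKM in knockout replicate 2 and at 0 in knockout replicate 4, the libraries in which Mt2 was at 107 and 109.7 FPKM. Erythroid markers, mostly the globin genes, summed to 1235 to 5679 FPKM in wild type and 205 to 1520 FPKM in knockout hearts. In knockout replicates 1 to 4 their sum was 619, 1085, 1520 and 205 FPKM. The sum was highest in replicate 3, where Mt1 and Mt2 were lowest, and lowest in replicate 4, where Mt2 was highest. The other libraries went the other way: replicate 2 was above replicate 1 in this sum and in Mt1 and Mt2. Hba-a1 and Hbb-b1 had knockout means of 0.289 and 0.282 of the wild type means and were not called (limma adjusted p = 0.122 and 0.101). Smooth muscle markers summed to 410.2 to 855 and 356 to 663 FPKM, mostly from Acta2, with means of 585 and 449 FPKM. Of the 4 markers, 1 was called higher and 0 lower, beside 6.15% and 6.01% of all genes tested. It was Tagln, at 31.8 ± 5.14 and 56.5 ± 11.5 FPKM (limma adjusted p = 0.0119), without overlap. Macrophage markers summed to 19.4 to 21.6 and 18.6 to 22.2 FPKM. Fibroblast markers summed to 561 to 639 FPKM in wild type and 332 to 451 FPKM in knockout hearts. Of the 5 markers, 0 were called higher and 2 lower, and Tcf21 had means of 17.0 and 18.0 FPKM. The part of shifts in cell type markers in the changes of Mt1 and Mt2 was not tested.

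Mtf1, the zinc sensor that drives Mt1, Mt2 and Slc30a1, was at 3.73, 4.71, 3.85 and 5.43 FPKM in wild type and 3.83, 5.58, 4.99 and 6.89 FPKM in knockout replicates 1 to 4. The groups overlapped, and replicate 4 was the highest library of both. The means were 4.43 ± 0.797 and 5.32 ± 1.28 FPKM, 1.20-fold, with a log2 change of 0.21 ± 0.16. Without knockout replicate 4 the log2 change was 0.09, without both replicates 4 it was 0.18, and it was called in none of the 14 alternatives in which it passed the filter.

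Slc30a1 encodes ZnT1, the zinc exporter of the plasma membrane and, like Mt1, a target of MTF-1. It was at 5.56, 5.19, 5.26 and 5.53 FPKM in wild type and 5.05, 5.38, 4.80 and 6.17 FPKM in knockout replicates 1 to 4. The knockout range enclosed the wild type range. The means were 5.38 ± 0.187 and 5.35 ± 0.594 FPKM, a ratio of 0.994 and a log2 change of -0.01 ± 0.09, and over the alternatives the change ran from -0.07 to 0.03 with no call, at -0.06 without both replicates 4. The ratio of Mt1 to Slc30a1 FPKM within a library was 31.0 ± 7.46 in wild type and 53.4 ± 9.80 in knockout hearts.

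Slc39a14 encodes ZIP14, an importer of zinc, manganese and iron that is known to be induced in inflammation. It was at 12.9, 10.6, 11.6 and 9.42 FPKM in wild type and 11.97, 10.5, 12.5 and 11.3 FPKM in knockout replicates 1 to 4, with full overlap. The means were 11.1 ± 1.46 and 11.5 ± 0.874 FPKM, 1.04-fold, with a log2 change of 0.05 ± 0.10. Without wild type replicate 4 the change was -0.02, without both replicates 4 it was -0.01, and no alternative called it.

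In wild type hearts the levels per length fell in the order Mt1, Mt2, Slc39a14, Mt3, Slc30a1 and Mtf1. Mt1 lay far above the rest, while Mt2 overlapped Slc39a14, Mt3 overlapped Slc30a1 and Slc30a1 overlapped Mtf1. In knockout hearts the order of the means was the same, but Mt2 lay above Slc39a14 in every library, and the lowest Slc39a14 value, 10.5 FPKM, was next to the highest Mt3 value, 10.4 FPKM. Mt3 no longer overlapped Slc30a1, while Slc30a1 and Mtf1 still overlapped.

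The other zinc transporters were taken as complete families, 9 further exporters and 13 further importers. Of these 22 genes, 14 passed the filter and 8 did not, 4 in each family. By limma, 0 of the 14 were called, where 12.2% of all genes were. At an unadjusted p under 0.05 there were 3 of the 14, against 29.6% of all genes. No overlap between the groups was found for 2 of the 14, against 20.7% of all genes. Their log2 changes ran from -0.22 to 0.32 with a median of 0.08, beside -0.01 for all genes tested, and 10 of 14 were above 0, beside 48.3% of all genes.

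Slc39a11 and Slc30a4 had the smallest p of the importers and of the exporters. Slc39a11 encodes ZIP11, an importer found at the Golgi and nucleus. It was at 2.63, 2.52, 2.31 and 2.17 FPKM in wild type and 3.43, 3.68, 2.75 and 3.25 FPKM in knockout hearts, without overlap. Its log2 change of 0.32 ± 0.09 gave a limma adjusted p of 0.0517, with 0.0412 to 0.128 over the alternatives. It was called without knockout replicate 3 (0.0412), after rescaling the libraries (0.0486) and under eBayes without trend and robust options (0.0469). Slc30a4 encodes ZnT4, which loads zinc into vesicles. It was at 4.70, 4.79, 5.02 and 5.87 FPKM in wild type and 5.84, 5.90, 6.86 and 7.74 FPKM in knockout hearts. Its groups overlapped by 1 pair of libraries, its 1.29-fold difference had a limma adjusted p of 0.0803, with 0.0552 to 0.197 over the alternatives, and it was never called.

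Slc39a8, named here after its values were seen, encodes ZIP8, an importer of zinc and manganese. It was at 2.05, 2.66, 2.83 and 3.06 FPKM in wild type and at 1.32, 4.21, 4.20 and 4.85 FPKM in knockout hearts. Knockout replicate 1 was below every wild type library and the other 3 knockout libraries were above every one. The limma adjusted p was 0.528 with all libraries, and 0.0135 with a log2 change of 0.57 without knockout replicate 1.

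**Figure D5:**
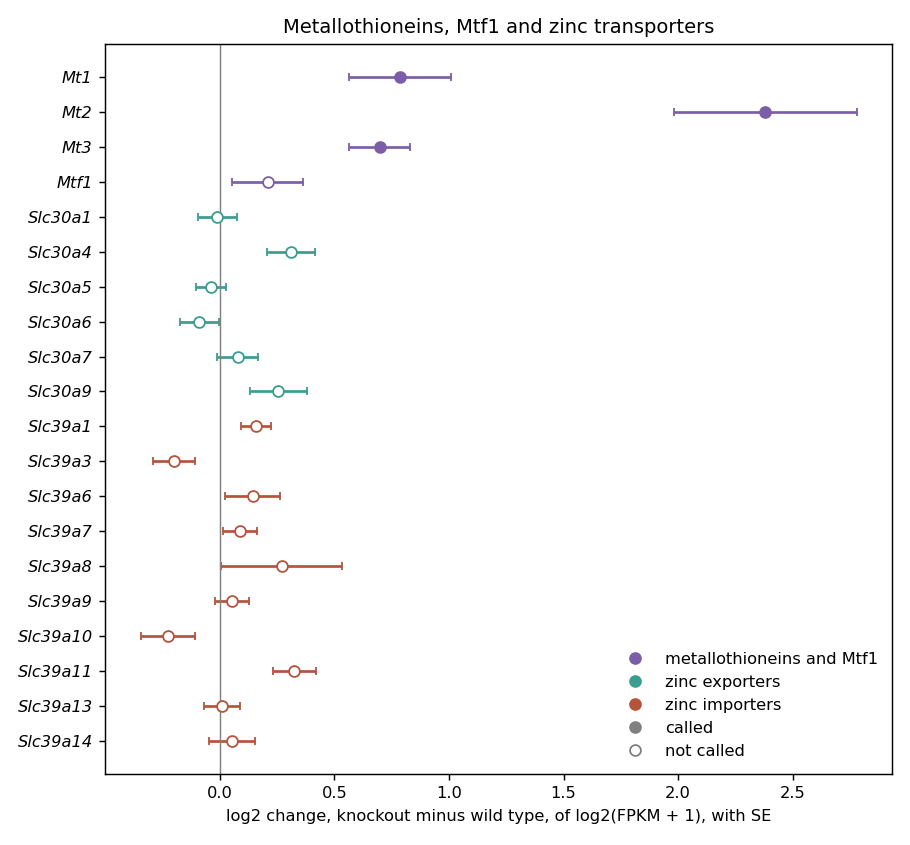
Log2 change of FPKM + 1, knockout minus wild type (x axis), with bars for the SE, for the 6 genes and the other zinc transporters that passed the filter; filled points were called and open points were not. Mt2 is at 2.38, Mt1 at 0.79 and Mt3 at 0.70, and the 14 other zinc transporters lie between -0.22 and 0.32.

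Further targets of MTF-1 were read to see whether genes beyond the metallothioneins moved. Beside Slc30a1, the list held 7 genes, all of which passed the filter, and 2 rose, 0 fell and 5 were not called, beside 6.15% of all genes called higher and 6.01% called lower. Pgf, the placental growth factor that binds the receptor FLT1, was at 1.88, 2.39, 1.72 and 2.34 FPKM in wild type and 19.3, 10.2, 9.70 and 9.49 FPKM in knockout hearts. It rose 5.84-fold, with a log2 change of 2.04 ± 0.20 (limma adjusted p = 0.000693) and no overlap. Ndrg1, a stress-responsive gene, rose 1.84-fold, from 16.6 ± 0.855 to 30.5 ± 4.68 FPKM (limma adjusted p = 0.00211). Both are also known as hypoxia-responsive genes. Slc40a1, the iron exporter ferroportin, had a log2 change of -0.39 and missed the call (limma adjusted p = 0.0549). The median log2 change of the 7 genes was 0.05, beside -0.01 for all genes tested.

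The genes nearest in pattern were found by the root mean square difference over the 8 libraries of log2(FPKM + 1) minus the wild type mean of the gene, among the other 11389 genes tested. This measure uses the same values that chose the 6 genes and is a description with no test. For Mt2 the nearest were Wisp2 (0.48), Serpina3n (0.52), Slc2a1 (0.57), Ccbp2 (0.59) and Igfbp3 (0.62), all at some distance. Wisp2, a secreted CCN family protein, was at 3.90, 17.3, 4.86 and 16.7 FPKM in knockout replicates 1 to 4, and Serpina3n, an acute phase protease inhibitor, at 2.56, 16.5, 3.35 and 19.3 FPKM. Both were therefore high in the same 2 knockout libraries as Mt2, replicates 2 and 4. Slc2a1, the glucose transporter GLUT1, did not share this split, at 25.2, 20.2, 15.0 and 20.0 FPKM.

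For Mt1 the nearest were Dct (0.18), Leprel1 (0.19), 8430408G22Rik (0.21), Prune2 (0.22) and Gys1 (0.23). Gys1, the glycogen synthase of muscle, was at 23.5, 21.9, 24.6 and 16.5 FPKM in wild type and 30.0, 36.0, 31.2 and 38.5 FPKM in knockout hearts, lowest in wild type replicate 4 as Mt1 was. Mt3 was nearest to Sdc4 (0.10), a cell surface proteoglycan, and Rassf9 (0.12). Sdc4 was at 8.27 FPKM in wild type replicate 4, at most 6.81 FPKM in the other wild type hearts and at 10.8 to 12.4 FPKM in knockout hearts, again with wild type replicate 4 highest of its group. The nearest genes were Rtcd1 (0.08) and Marveld1 (0.09) for Mtf1, Slc48a1 (0.04) and Tor3a (0.04) for Slc30a1, and Ralgapa1 (0.04) and Myo18a (0.05) for Slc39a14.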

How the data were processed

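RNA from whole hearts was made into libraries with an Illumina TruSeq kit, per the labels' protocols. Per the submitters' processing notes, TopHat2, Cufflinks and mm10 were used, with no versions named. The deposited table holds FPKM by the authors for 22518 genes in 8 columns. The unit is not named in it and was read from the tools and the values. The columns are quantile normalised: the 39 highest ranks hold 1 value in all columns. Depth is unknown, and the authors' annotation is not given in the sources used here.

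The 11390 genes whose mean reached 1 FPKM were fitted as log2(FPKM + 1) in limma 3.58.1 (R 4.3.3; eBayes with trend and robust), with no covariate and Benjamini-Hochberg adjustment. The functions were tested on simulated data. Sequences were read from RefSeq and GENCODE M21 with Python 3.11.15; 21739 gene identifiers matched GENCODE. Genes were named by rule: the 6 genes and Mt4, up to 4 called genes per list by p (with none called, the gene of smallest p), and the nearest 5 genes in pattern for Mt1 and Mt2 and 2 for the others. Slc39a2, Slc39a8, Slc40a1, Tsc22d3, Lcn2 and some cell type markers were named outside this rule. Single values of 2 marker genes are not reported here. The members and lists were chosen with earlier results of these data known. The 15 alternatives changed the pseudocount, filter, scaling, variance model or replicate block, or left out libraries.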

Additional observations from a re-analysis of the deposited data

Results flagged for a closer look

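In groups of 4 libraries, the highest or lowest library was compared with the others by its gap to the nearest, divided by the range of the group. Of 62 groups tested, 4 had a library that stood apart, and chance gives about 1 in 20. Pgf was at 19.3 FPKM in knockout replicate 1 and at 9.49 to 10.2 FPKM in the other knockout hearts, all above wild type. Summed macrophage markers were at 21.6 FPKM in wild type replicate 3, beside 19.4 to 19.6 FPKM. Summed hepatocyte markers were at 2.56 FPKM in knockout replicate 3, beside 0.545 to 0.755 FPKM. Summed markers of airway and alveolar epithelium were at 1241 FPKM in wild type replicate 4, beside 0 to 0.481 FPKM, with Scgb1a1 at 1030.4 FPKM. None of the values of the 6 genes stood apart in this way.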

How the results depend on the processing

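The genes called higher, 701 in the fit as described, numbered 323 with a replicate block, 467 without both replicates 4 and 288 to 931 with 1 library left out, the extremes being wild type replicate 2 and knockout replicate 1. Those called lower, 684, numbered 290 with the replicate block and 286 to 888 at the same extremes. The replicate numbers do not pair the samples: deviations of libraries with the same number had r = -0.23, 0.01, 0.10 and -0.10. Under the block Mt2 and Mt3 kept their calls and Mt1 lost its call. Of the 6 genes, 2 or 3 were called in every alternative. Besides the block and the omissions, Mt1 lost its call with no filter and under eBayes without trend and robust options. The other zinc transporters, with 0 called, gave 1 without the filter (Slc39a2, at 0.156 and 0.0474 FPKM), 1 after rescaling and 1 under eBayes without trend and robust options (both Slc39a11), and 0 to 1 with a library left out. No direction was reversed among the called genes named in the text, apart from cell type markers, which were not followed over the alternatives. Without both replicates 4, Mt1 and Serpina3n lost their calls, and Mt2, Mt3, Pgf, Ndrg1, Commd1, Cox17, Fkbp5, Timp1, Stat3, Txnrd1 and Nqo1 kept theirs. Depth is unknown, so no counting error can be given, and FPKM of low genes cannot be weighed by reads.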

Other observations

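Genes of other routes known to induce metallothioneins were read as lists, each beside the 6.15% of all genes called higher and 6.01% called lower. Of 10 glucocorticoid-responsive genes that passed the filter, 1 rose and 0 fell, with a median log2 change of 0.15. It was Fkbp5, a co-chaperone of the glucocorticoid receptor, at 9.63, 7.60, 6.23 and 7.96 FPKM in wild type hearts and, in knockout hearts, at 12.3, 18.4, 14.7 and 28.1 FPKM (2.34-fold, limma adjusted p = 0.0156, and 0.0520 without wild type replicate 2). The log2 changes of the glucocorticoid-responsive genes ran from -0.53 for Tsc22d3 to 1.08 for Fkbp5. Tsc22d3 was not called (limma adjusted p = 0.0598) and its groups overlapped. Of 10 genes of the IL-6 and STAT3 pathway, 3 rose and 0 fell, with a median of 0.30. Of these genes, Serpina3n and Lcn2 passed the filter only through the knockout hearts. Their means were 0.800 and 0.598 FPKM in wild type and 10.4 and 2.06 FPKM in knockout hearts. Both enter the median, Serpina3n is among the 3 that rose and Lcn2 was not called, so these numbers are a description. Timp1, an inhibitor of metalloproteinases, rose 2.11-fold (limma adjusted p = 0.00758). Stat3 itself rose 1.46-fold (limma adjusted p = 0.0205), a call lost without wild type replicate 2 or knockout replicate 3. Serpina3n rose 13.0-fold (limma adjusted p = 0.0366), a call lost in 8 of 15 alternatives, among them the omission of any wild type library or of knockout replicates 2 or 4. Of 9 NRF2 targets, genes of the response to oxidative stress, 2 rose and 0 fell, with a median of 0.15. Txnrd1, a thioredoxin reductase, rose 1.35-fold (limma adjusted p = 0.0122), and the quinone reductase Nqo1 rose 1.54-fold (limma adjusted p = 0.0144, and 0.0517 without wild type replicate 2).

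Copper, which metallothioneins also bind, was read through 11 genes of copper handling that passed the filter. Of these 0 rose and 2 fell, with a median log2 change of -0.01. Commd1, a regulator of copper export, averaged 175 ± 14.6 FPKM in wild type against 127 ± 11.2 FPKM in knockout hearts (n = 4, limma adjusted p = 0.0131). The copper chaperone of cytochrome oxidase, Cox17, was at 267 ± 24.1 and 205 ± 6.20 FPKM (n = 4, limma adjusted p = 0.0162). Both calls were lost with the replicate block, with adjusted p = 0.0625 for Commd1, and that of Cox17 also without wild type replicate 2. The groups of both genes did not overlap.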
